A study of Mus musculus with 18 samples.

Results

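Interferon-stimulated genes were followed in the apex of mouse hearts by RNA sequencing. The set held 39 genes given by name (nucleic acid sensors, transcription factors, antiviral effectors, the ISG15 system and interferon-inducible GTPases), taken as the rows of the deposited count table with those symbols. All 39 were found among the 54532 genes of the table and all 39 were among the 17876 genes with enough counts to be tested. The study asked what extra lamin C or lamin A, delivered by the viral vector rAAV9, does in hearts given an shRNA against Lmna, the gene of both A-type lamins, as a model of dilated cardiomyopathy. There were 6 groups of 3 libraries, all of mice whose genotype is labelled WT, in 2 batches that the labels call LC and LA. In batch LC the labels were control, Lmna shRNA, and this shRNA plus lamin C. In batch LA they were control, Lmna shRNA, and this shRNA plus lamin A. What the control hearts received, the promoter driving the vectors, and the strain, age and time of sampling are not given in the sources used here. Nothing in the labels says whether each library is a separate mouse, so p-values measure the spread between these libraries.

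Cells that sense foreign or misplaced nucleic acid release type I interferons, which bind a receptor on the same and neighbouring cells. The receptor's Janus kinases activate STAT proteins, which join IRF9 to form a complex that binds the interferon-stimulated response element in the promoters of antiviral genes. Type II interferon, or interferon gamma, acts through its own receptor and the gamma-activated site, and it is a strong inducer of the guanylate-binding and immunity-related GTPases. In the heart, macrophages, endothelial cells, fibroblasts and cardiomyocytes can all respond to interferon.

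The promoters show how many members carry the first of these elements, and 6 of them are printed because the results turn on these genes. RefSeq (GRCm38.p6, the assembly that mm10 names) gave a promoter window, 250 bases before to 50 after the start of transcription, for 29 of the 39 members. None was matched for Zbp1, Dhx58, Oas2, Mx2, Usp18, Parp9, Parp14, Iigp1, Ifi27l2a or Rtp4. Windows were searched on both strands for the core of the response element, GAAANNGAAA, and for the gamma-activated site, TTCNNNGAA. Each sequence below is the 150 bases before the start of transcription, 5′ to 3′ on the gene's strand, with every match of GAAANNGAAA on either strand in capitals. A match on the other strand reads as the reverse complement of the motif.
Ifit1 (chr19:34640739-34640888, plus strand): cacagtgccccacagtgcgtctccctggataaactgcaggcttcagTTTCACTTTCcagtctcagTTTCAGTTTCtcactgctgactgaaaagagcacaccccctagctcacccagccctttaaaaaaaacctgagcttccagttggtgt
Oas3 (chr5:120777660-120777809, minus strand): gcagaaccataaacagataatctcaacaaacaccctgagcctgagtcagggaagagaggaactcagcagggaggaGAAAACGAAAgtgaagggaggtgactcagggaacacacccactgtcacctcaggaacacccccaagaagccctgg
Isg15 (chr4:156200819-156200968, minus strand): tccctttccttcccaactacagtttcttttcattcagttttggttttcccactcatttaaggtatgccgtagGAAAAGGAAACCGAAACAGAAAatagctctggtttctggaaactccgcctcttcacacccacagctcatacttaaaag
Gbp3 (chr3:142559894-142560043, plus strand): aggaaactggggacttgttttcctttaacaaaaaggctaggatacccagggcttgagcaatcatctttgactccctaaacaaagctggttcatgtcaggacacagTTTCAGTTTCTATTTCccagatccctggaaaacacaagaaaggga
Igtp (chr11:58199406-58199555, plus strand): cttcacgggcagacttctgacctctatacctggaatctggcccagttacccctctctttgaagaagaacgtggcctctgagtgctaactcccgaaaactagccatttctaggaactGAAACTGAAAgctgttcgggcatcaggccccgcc
Rsad2 (chr12:26456453-26456602, minus strand): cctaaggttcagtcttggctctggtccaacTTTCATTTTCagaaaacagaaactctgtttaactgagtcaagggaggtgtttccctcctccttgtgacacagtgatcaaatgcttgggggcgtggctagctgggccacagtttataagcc
In Isg15 the capitals are 3 overlapping matches, and in Gbp3 they are 2, in the window of that gene with the most matches.

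The response element core stood in the windows of 18 of the 29 members (62.1%), against 1079 of 27025 genes (3.99%). The gamma-activated site stood in 8 of the 29 members (27.6%), against 9.55% of genes. Both motifs were found in 6 members, 2 of them with overlapping matches, and neither in 9. The 11 members without the core in the window were Irf9, Irf7, Ifit2, Oasl1, Oasl2, Cmpk2, Samd9l, Dtx3l, Ifi44, Ifi35 and Xaf1. Among these 11 the log2 change (shRNA-labelled hearts of batch LC against control) ran from 0.62 ± 0.10 for Ifi35 to 2.66 ± 0.18 for Oasl1. Among the 18 members with the core it ran from 0.17 ± 0.13 for Rsad2 to 5.01 ± 0.26 for Oas3. A match describes letters and is not a measured binding site.

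**Figure D1:**
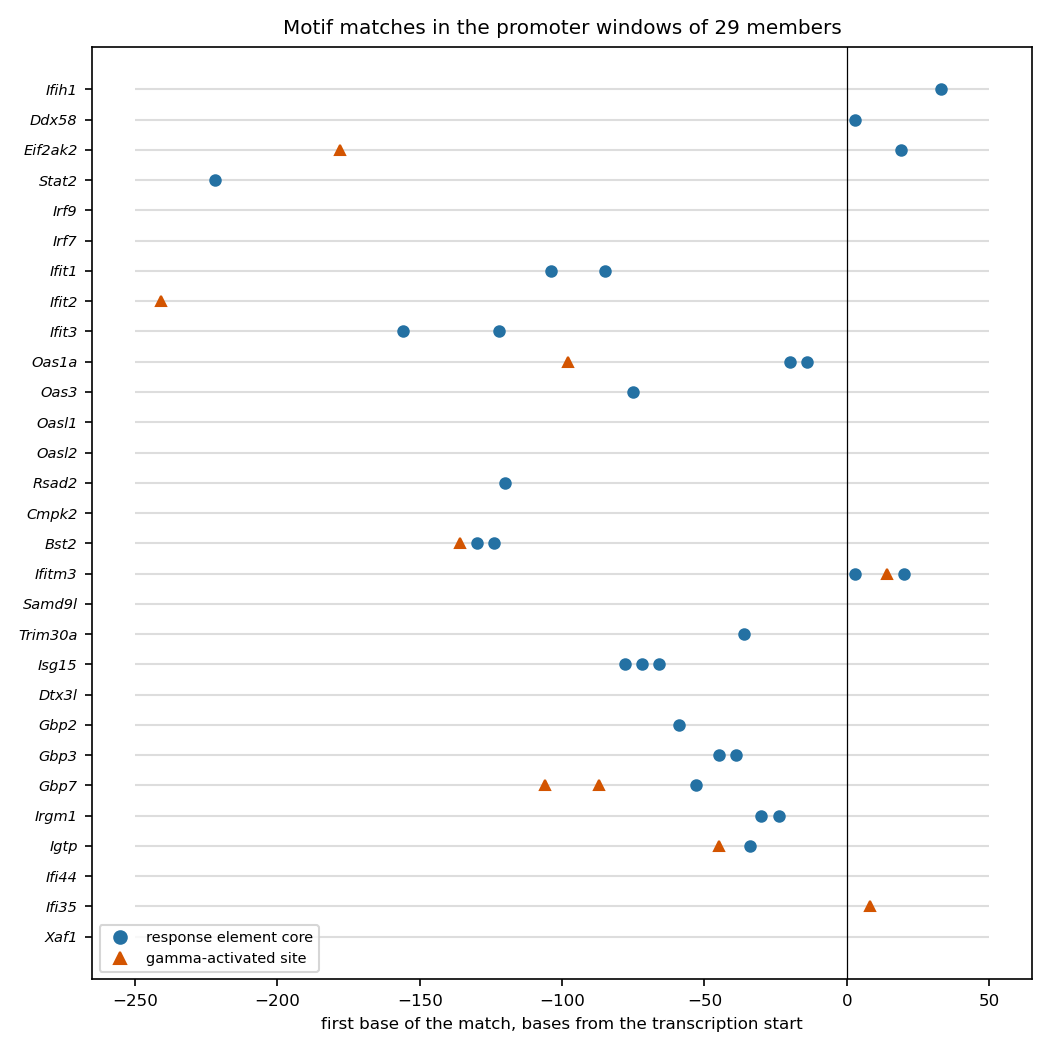
Position of motif matches in the promoter windows of the 29 members with a RefSeq window, in bases from the start of transcription (0). Circles are response element cores and triangles gamma-activated sites, and 18 members carry at least 1 circle.

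Libraries held between 31418657 and 41259968 counts, and levels are given as CPM, counts scaled by library size and TMM factors, in which 3 counts equal between 0.0622 and 0.108. Lmna, the target of the shRNA, had CPM in batch LC of 122, 128 and 120 in the controls, 137, 134 and 115 with the shRNA label, and 1317, 1064 and 1375 with lamin C. In batch LA it had 120, 120 and 112 in the controls, 127, 122 and 130 with the shRNA label, and 556, 537 and 502 with lamin A. The gene count therefore did not show less Lmna in the hearts labelled shRNA (log2 change 0.06 ± 0.08, edgeR adjusted p = 0.578, in batch LC, and 0.11 ± 0.08, adjusted p = 0.258, in batch LA). Every direction below rests on those labels. With lamin C Lmna was 10.1-fold over control, and with lamin A 4.54-fold, so the 2 lamin groups also differed in their Lmna counts, which do not separate lamin A from lamin C. The 10 cardiomyocyte markers summed to between 36700 and 102000 CPM in every library. Several libraries stood apart over the members. The third control of batch LC, whose label number is far from those of the other 2, was the highest of its group in 34 of 39 members. The first shRNA-labelled library of batch LA was the lowest of its group in 39 of 39 and the second the highest in 36. The third lamin C library was the lowest of its group in 29, and the second lamin A library in 26.

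In both batches nearly all members were higher in the hearts labelled shRNA than in their controls. The members were chosen with earlier results of these data known. The shares of all genes given beside them are therefore a description, not a test of the set. In batch LC 38 of 39 passed the test as higher and 0 as lower (edgeR quasi-likelihood test, Benjamini-Hochberg adjusted over 17876 genes, threshold 0.05), against 33.3% of all genes tested called higher and 29.6% lower. In batch LA 38 of 39 were higher and 0 lower, against 32.4% and 29% of all genes. The rise was at least 2-fold for 29 members in batch LC and 25 in batch LA, against 16.2% and 15.8% of all genes. The median log2 change of the 39 members was 1.5 in batch LC and 1.37 in batch LA, and that of all genes tested was 0.05 in both. In 37 members the call was made in both batches, as it was for 28.5% of all genes. In 38 members of each batch every shRNA-labelled library lay above every control, against 34.7% of all genes in batch LC and 35.8% in batch LA. The call failed for Rsad2 in batch LC and for Iigp1 in batch LA. With libraries scaled by their totals in place of TMM, the median of all genes shifted by 0.43 in batch LC and 0.44 in batch LA, the members' medians were 1.92 and 1.81, and 39 members were called in each batch. Of the 17876 genes tested, 10429 were then called higher in batch LC and 10637 in batch LA. Of all genes called, 81.2% were then higher in batch LC and 82.4% in batch LA, against 52.9% and 52.7% with TMM.

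Cell type markers changed as well, some with the members and some the other way. Of 16 macrophage and monocyte markers 15 were called higher in the shRNA-labelled hearts of each batch, and their sum was 467 to 575 CPM in the controls and 1740 to 1930 CPM in the shRNA-labelled libraries of batch LC. Of 14 T and natural killer cell markers 11 were higher in each batch, summing to 2.94 to 4.76 CPM in the controls and 11.8 to 14.5 CPM with the shRNA label in batch LC. All 10 fibroblast markers were higher, from 1420 to 1820 CPM to 7660 to 11200 CPM. The 10 cardiomyocyte markers were all lower, from 96900 to 102000 CPM to 36700 to 43900 CPM, of which 8 stayed lower when scaled by library totals. Of 10 endothelial markers 9 were lower and 1 higher, with sums of 1660 to 1860 CPM and 1070 to 1220 CPM, and 5 stayed lower with library totals. Neutrophil markers summed to 0.526 to 1.72 CPM and 1.2 to 3.59 CPM, with 1 of 8 at 0 counts in both groups. B cell markers summed to 2.35 to 3.15 CPM and 2.91 to 3.36 CPM in batch LC. Of 7 tested 1 was higher in batch LC, and 1 was higher and 1 lower in batch LA. Of 8 dendritic cell markers tested, 6 were higher and 2 lower in batch LC, with sums of 26.8 to 28.2 CPM and 32.5 to 34.9 CPM, and 6 were higher and 1 lower in batch LA. Their part in the members' change was not tested. In bulk tissue, more cells of a type and more RNA per cell cannot be told apart.

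**Figure D2:**
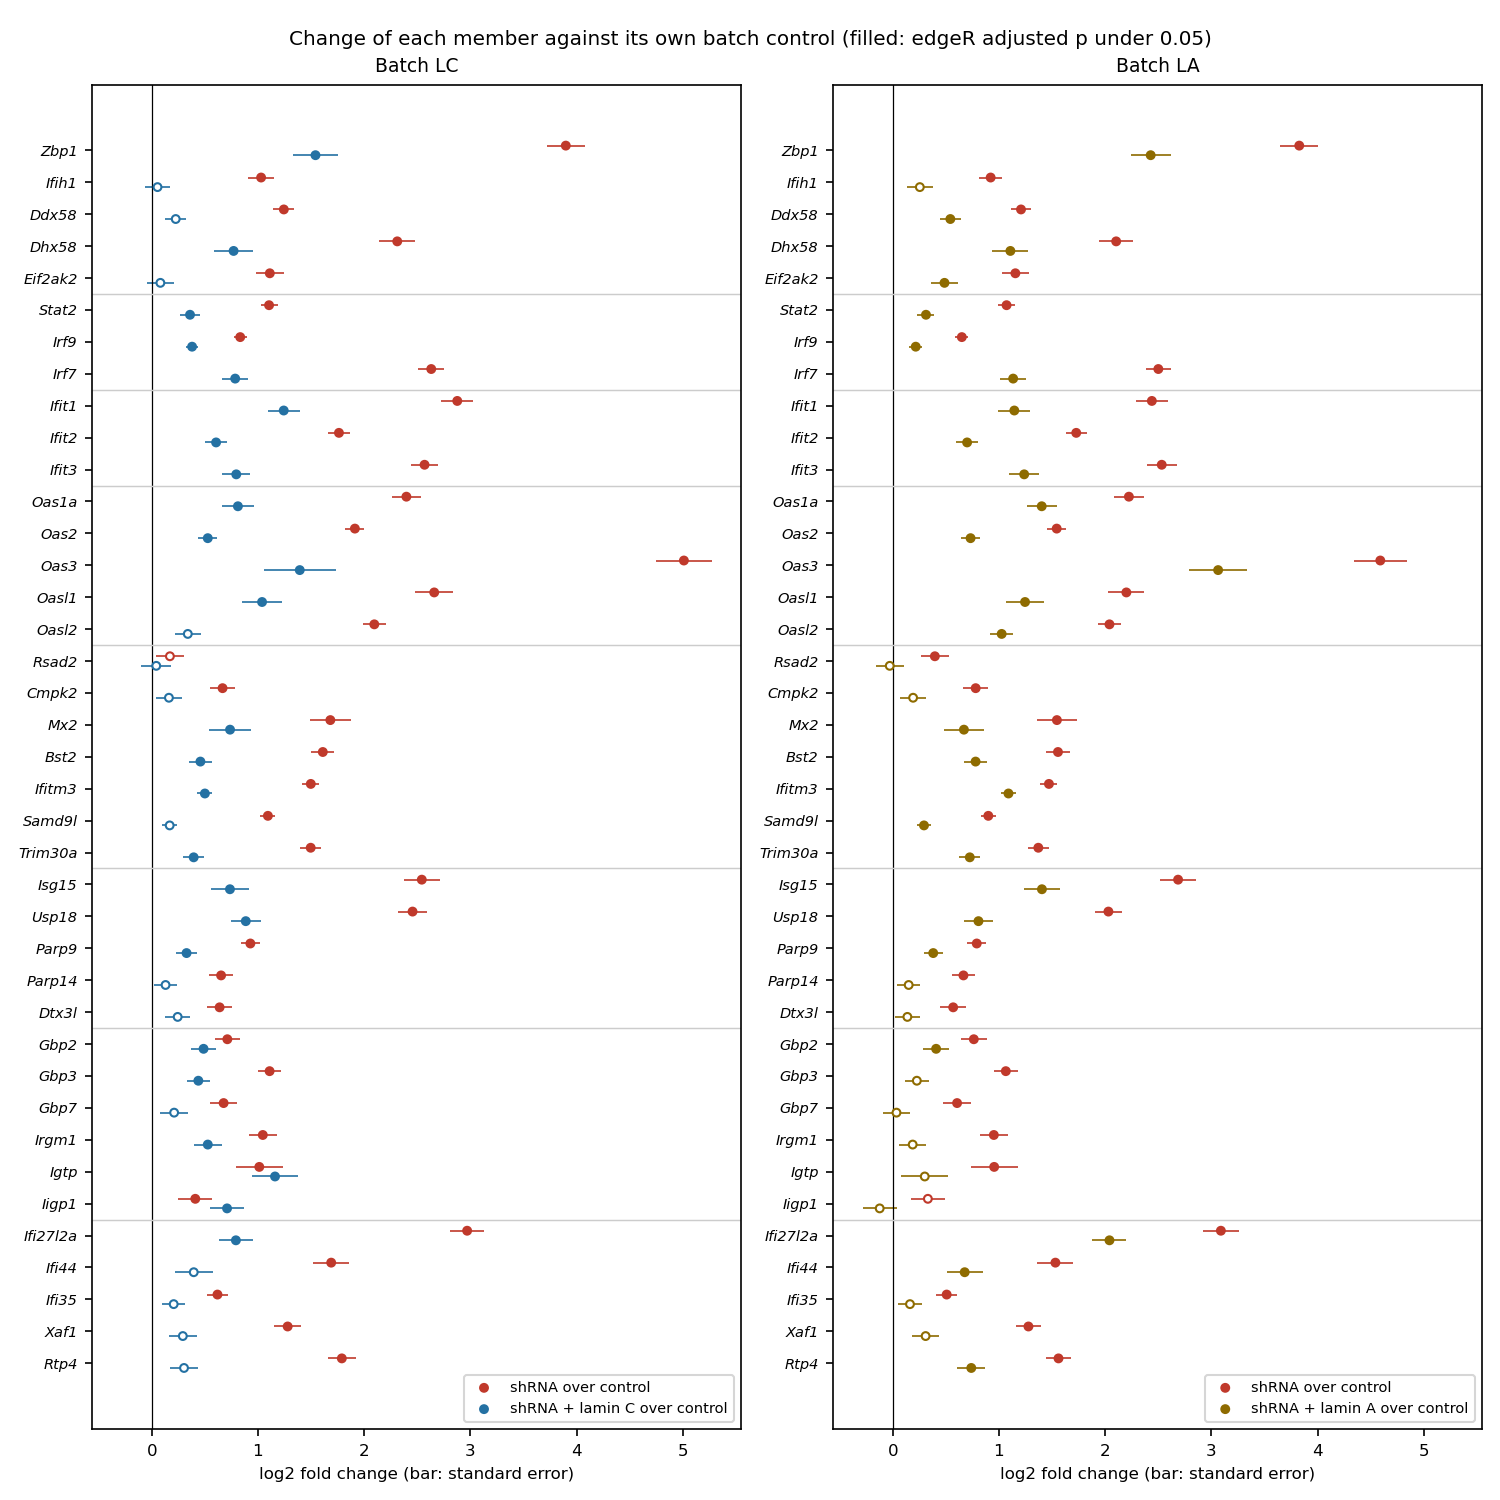
Log2 fold change of each member against the control of its own batch, with standard errors, from edgeR. Filled points passed an adjusted p of 0.05. The shRNA-labelled hearts run from 0.17 for Rsad2 to 5.01 for Oas3 in batch LC. The libraries of the lamin hearts lay wholly between control and shRNA-labelled libraries for 23 members with lamin C and 30 with lamin A, against 10.3% and 11.9% of all genes.

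Among the sensors of nucleic acid, Zbp1 changed most. Zbp1 (ENSMUSG00000027514, mm10 chr2:173206612-173218923) binds Z-form DNA and RNA and can start inflammatory cell death. Its CPM in batch LC were 1.18, 1.26 and 2.29 in the controls, 23, 24.4 and 22.8 with the shRNA label, and 5.09, 4.61 and 4.02 with lamin C. Batch LA gave 1.72, 1.53 and 1.77 in the controls, 20.4, 28.6 and 22.4 with the shRNA label, and 8.98, 7.72 and 10.3 with lamin A. The control and shRNA-labelled groups were far apart in both batches, and the log2 change was 3.90 ± 0.18 (adjusted p = 1.64e-12) in batch LC and 3.83 ± 0.18 (adjusted p = 2.04e-12) in batch LA. Dhx58 encodes LGP2, a regulator of the RNA sensors RIG-I and MDA5. Its CPM in batch LC were 2.97, 2.77 and 4.33 in the controls, 17.3, 16.9 and 15.8 with the shRNA label, and 6.43, 5.87 and 4.89 with lamin C. Those of batch LA were 5.19, 3.69 and 3.86 in the controls, 14.7, 21.7 and 18.5 with the shRNA label, and 9.76, 8.66 and 9.12 with lamin A. No shRNA-labelled library overlapped a control, with log2 changes of 2.31 ± 0.17 and 2.10 ± 0.16. Ddx58, which is RIG-I, rose by 1.24 ± 0.10 and 1.21 ± 0.09. Ifih1, which is MDA5, rose by 1.03 ± 0.12 and 0.92 ± 0.11, and Eif2ak2, the kinase PKR that halts translation on double-stranded RNA, by 1.11 ± 0.13 and 1.16 ± 0.13.

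All 3 transcription factor members rose. Irf7, the factor that amplifies type I interferon production, had CPM in batch LC of 21.01, 16.6 and 21.7 in the controls, 120, 117 and 131 with the shRNA label, and 34.9, 35.6 and 31.7 with lamin C. In batch LA the values were 21.2, 16.3 and 19.6 in the controls, 95.3, 119 and 109 with the shRNA label, and 41.3, 35.95 and 48.04 with lamin A. The 3 groups of each batch did not overlap, with the lamin libraries between the others, and the log2 change over control was 2.63 ± 0.12 (adjusted p = 1.16e-12) in batch LC and 2.5 ± 0.12 (adjusted p = 2.23e-12) in batch LA. Stat2 and Irf9 are parts of the complex that binds the response element. Stat2 had CPM in batch LC of 29.99, 29.7 and 35.2 in the controls, 66.1, 70.8 and 67.2 with the shRNA label, and 46.3, 38.96 and 36.7 with lamin C. Batch LA gave 34.1, 32.98 and 33.9 in the controls, 64.4, 73.8 and 74.1 with the shRNA label, and 45.3, 40.1 and 40.2 with lamin A. Its groups of control and shRNA-labelled hearts did not overlap, and it rose by 1.11 ± 0.08 and 1.07 ± 0.08. Irf9 had CPM in batch LC of 27.3, 26.3 and 28.1 in the controls, 47.95, 51.8 and 45.9 with the shRNA label, and 38.8, 34.6 and 32.9 with lamin C. Batch LA gave 31.9, 30.8 and 30.3 in the controls, 46.98, 51.6 and 47.3 with the shRNA label, and 36.7, 35.3 and 35.98 with lamin A. It rose less, by 0.83 ± 0.06 and 0.65 ± 0.06, again without overlap. Irf7 overlaps Phrf1 on the other strand, so part of its count could belong to that gene.

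The IFIT proteins bind viral RNA that lacks the host's cap marks, and all 3 rose. Ifit1 had CPM in batch LC of 8.76, 7.93 and 9.34 in the controls, 61.1, 63.4 and 66.8 with the shRNA label, and 23.1, 21.6 and 16.9 with lamin C. Batch LA gave 8.12, 8.62 and 10.5 in the controls, 38.2, 61.01 and 48.2 with the shRNA label, and 19.8, 18.2 and 22.01 with lamin A. The log2 change was 2.88 ± 0.15 (adjusted p = 4.85e-12) in batch LC and 2.44 ± 0.15 (adjusted p = 4.04e-11) in batch LA, and the first shRNA-labelled library of batch LA was the lowest of its group at 38.2 CPM. Ifit3 supports IFIT1 in binding RNA. It had CPM in batch LC of 18.4, 15.8 and 18.4 in the controls, 104, 94.2 and 114 with the shRNA label, and 30.8, 33.5 and 26.9 with lamin C. Batch LA gave 14.96, 13.4 and 16.4 in the controls, 67.2, 107 and 84.6 with the shRNA label, and 33.9, 33.99 and 37.7 with lamin A. It rose by 2.57 ± 0.13 and 2.53 ± 0.14, and Ifit2 by 1.76 ± 0.10 and 1.73 ± 0.10. Of the 75-base words in the exons of Ifit3, 41.1% also occur in other genes, led by Ifit3b, so its count is uncertain.

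The 2-5A synthetase family makes the short oligoadenylates that switch on RNase L, an enzyme that degrades RNA. All 5 members rose at least 2-fold in both batches. Oas3 (ENSMUSG00000032661, mm10 chr5:120753098-120777661) had the largest change of the set. Its CPM in batch LC were 0.327, 0.386 and 0.394 in the controls, 10.3, 12.2 and 13.3 with the shRNA label, and 1.17, 0.737 and 1.04 with lamin C. Those of batch LA were 0.382, 0.392 and 0.649 in the controls, 9.48, 12.7 and 11.9 with the shRNA label, and 3.81, 2.83 and 5.16 with lamin A. It went from under 1 CPM in every control to over 9 in every shRNA-labelled library, a log2 change of 5.01 ± 0.26 (adjusted p = 4.98e-12) in batch LC and 4.59 ± 0.25 (adjusted p = 1e-11) in batch LA. Oasl1 is a relative that lacks synthetase activity and restrains Irf7 translation. It had CPM in batch LC of 1.86, 1.86 and 2.29 in the controls, 10.8, 12.99 and 14.2 with the shRNA label, and 4.13, 4.92 and 3.28 with lamin C. Batch LA gave 2.55, 2.48 and 2.74 in the controls, 8.99, 13.7 and 12.98 with the shRNA label, and 6.64, 5.8 and 5.99 with lamin A. It rose by 2.66 ± 0.18 and 2.20 ± 0.17 with no overlap. Oas1a, Oas2 and Oasl2 rose by 2.40 ± 0.14, 1.91 ± 0.09 and 2.10 ± 0.11 in batch LC. In batch LA they rose by 2.22 ± 0.14, 1.54 ± 0.09 and 2.04 ± 0.11. Oas1a shares 47.6% of its 75-base words with other genes, led by Oas1g, and its count is uncertain.

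Of the 7 other antiviral effectors 6 rose in batch LC and 7 in batch LA. Mx2 belongs to a family of dynamin-like GTPases that block viral replication, and the deposited table annotates the gene as a polymorphic pseudogene. It had CPM in batch LC of 2.84, 2.88 and 3.62 in the controls, 10.3, 8.67 and 10.9 with the shRNA label, and 5.29, 6.03 and 4.2 with lamin C. Batch LA gave 4.65, 2.87 and 3.1 in the controls, 8.12, 12.5 and 10.5 with the shRNA label, and 5.02, 6.23 and 5.7 with lamin A. It rose by 1.68 ± 0.19 and 1.55 ± 0.19. Bst2, or tetherin, holds budding virus at the cell surface. It had CPM in batch LC of 21.8, 20 and 23.8 in the controls, 69.1, 69.9 and 61.4 with the shRNA label, and 29.3, 30.4 and 30.4 with lamin C. Batch LA gave 26.8, 22.01 and 20.3 in the controls, 55.7, 77.6 and 70.4 with the shRNA label, and 35.9, 40.1 and 42.97 with lamin A. Neither gene's shRNA-labelled libraries overlapped the controls, and Bst2 rose by 1.61 ± 0.11 and 1.56 ± 0.11. Ifitm3, a membrane protein that blocks viral entry, rose by 1.5 ± 0.08 and 1.47 ± 0.08, Trim30a, a TRIM protein, by 1.5 ± 0.10 and 1.37 ± 0.10, and Samd9l by 1.09 ± 0.07 and 0.90 ± 0.07. Rsad2 encodes viperin, which makes a nucleotide that stops viral RNA synthesis. It had CPM in batch LC of 36.7, 38.5 and 44.1 in the controls, 39.5, 43.4 and 51.5 with the shRNA label, and 37.4, 48.9 and 36.4 with lamin C. There the groups overlapped, and the change of 0.17 ± 0.13 (adjusted p = 0.28) did not pass. In batch LA it had 41.5, 41.6 and 43.9 in the controls, 44.2, 68.4 and 54.5 with the shRNA label, and 44.8, 38.5 and 41.3 with lamin A. In that batch it was called at 0.40 ± 0.13 (adjusted p = 0.0148), but at 0.22 ± 0.14 (adjusted p = 0.147) without the second shRNA-labelled library. Cmpk2, a nucleotide kinase gene next to Rsad2, was called in both, at 0.67 ± 0.12 and 0.78 ± 0.12.

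All 5 genes of the ISG15 system and ADP-ribosylation rose. Isg15, a ubiquitin-like protein joined to other proteins, had CPM in batch LC of 3.66, 4.49 and 5.37 in the controls, 27.5, 27.3 and 23.8 with the shRNA label, and 7.06, 8.19 and 7.18 with lamin C. Batch LA gave 4.58, 4.87 and 3.57 in the controls, 21.3, 34.5 and 28.3 with the shRNA label, and 10.8, 10.3 and 13.4 with lamin A. The groups did not overlap, and the log2 change was 2.54 ± 0.17 (adjusted p = 1.22e-10) in batch LC and 2.69 ± 0.17 (adjusted p = 6.55e-11) in batch LA. Usp18 removes ISG15 and also damps signalling at the interferon receptor. It had CPM in batch LC of 4.61, 4.7 and 4.97 in the controls, 26.1, 25.04 and 27.2 with the shRNA label, and 9.12, 9.39 and 7.87 with lamin C. Batch LA gave 6.78, 5.68 and 5.81 in the controls, 20.2, 30.4 and 24.1 with the shRNA label, and 10.4, 9.38 and 12.2 with lamin A. It rose by 2.46 ± 0.14 and 2.03 ± 0.13. Parp9 and Dtx3l, which form a ubiquitin ligase complex, and Parp14, an ADP-ribosyltransferase, rose less: by 0.93 ± 0.09, 0.64 ± 0.12 and 0.65 ± 0.11 in batch LC. Parp9 and Dtx3l overlap on opposite strands, so their counts may share reads.

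The 6 GTPases, which attack the membranes around microbes inside cells, had a median change of 0.86 in both batches. Gbp3 had CPM in batch LC of 27.5, 24.9 and 24.6 in the controls, 57.03, 55.04 and 54.03 with the shRNA label, and 36.2, 38.3 and 29.9 with lamin C. Batch LA gave 22.9, 22.5 and 27.6 in the controls, 41.7, 59.99 and 50.9 with the shRNA label, and 29.7, 27.8 and 27.9 with lamin A. It rose by 1.11 ± 0.11 and 1.06 ± 0.11. Irgm1, a regulator of the other immunity-related GTPases, had CPM in batch LC of 25.6, 22.9 and 31 in the controls, 52.7, 59.2 and 52.3 with the shRNA label, and 40.3, 44.1 and 30.1 with lamin C. Batch LA gave 27.8, 23.8 and 29.8 in the controls, 45.5, 60.6 and 51.1 with the shRNA label, and 33.3, 28.2 and 31.01 with lamin A. Control and shRNA-labelled libraries of both genes were apart, and Irgm1 rose by 1.05 ± 0.13 and 0.95 ± 0.13. Gbp2 and Gbp7 rose by 0.71 ± 0.12 and 0.68 ± 0.13 in batch LC. Igtp rose by 1.01 ± 0.22 and 0.96 ± 0.22. Iigp1 changed by 0.41 ± 0.16 (adjusted p = 0.0355) in batch LC, and 0.33 ± 0.16 (adjusted p = 0.0872) in batch LA did not pass. The batch LC call for Iigp1 was lost without control 2, control 3 or the second shRNA-labelled library, and with DESeq2, both FPKM fits and the third controls of both batches left out.

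The last 5 members have less defined roles in antiviral defence. Ifi27l2a, a small membrane protein gene, had CPM in batch LC of 20.4, 16.4 and 24.4 in the controls, 200, 152 and 127 with the shRNA label, and 32.5, 33.6 and 39.98 with lamin C. Batch LA gave 21.5, 16.8 and 15.3 in the controls, 144, 159 and 154 with the shRNA label, and 70.6, 66.4 and 83.5 with lamin A. All shRNA-labelled libraries were above 120 CPM and all controls under 25, with log2 changes of 2.97 ± 0.16 (adjusted p = 1.05e-11) and 3.09 ± 0.17 (adjusted p = 8.45e-12). Rtp4, a chaperone for some membrane receptors, had CPM in batch LC of 8.07, 9.23 and 11.5 in the controls, 35.6, 30.7 and 33.04 with the shRNA label, and 11.96, 11.4 and 12.2 with lamin C. Batch LA gave 11.2, 11.6 and 9.09 in the controls, 26.7, 35.7 and 31.8 with the shRNA label, and 18.2, 15.7 and 19.4 with lamin A. It rose by 1.79 ± 0.13 and 1.56 ± 0.12, but it overlaps Masp1 on the other strand and shares 10.5% of its 75-base words with other genes. Ifi44, Xaf1 and Ifi35 rose by 1.69 ± 0.17, 1.28 ± 0.13 and 0.62 ± 0.10 in batch LC. Per length, in the deposited FPKM, the most abundant members in the shRNA-labelled hearts of batch LC were Ifi27l2a at 336 (43.2 in control), Ifitm3 at 272 (96.8), Bst2 at 72.0 (23.7) and Ifit3 at 58.0 (9.82). Oas3, with the largest change, had the lowest level, 1.65 against 0.0511 FPKM.

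**Figure D3:**
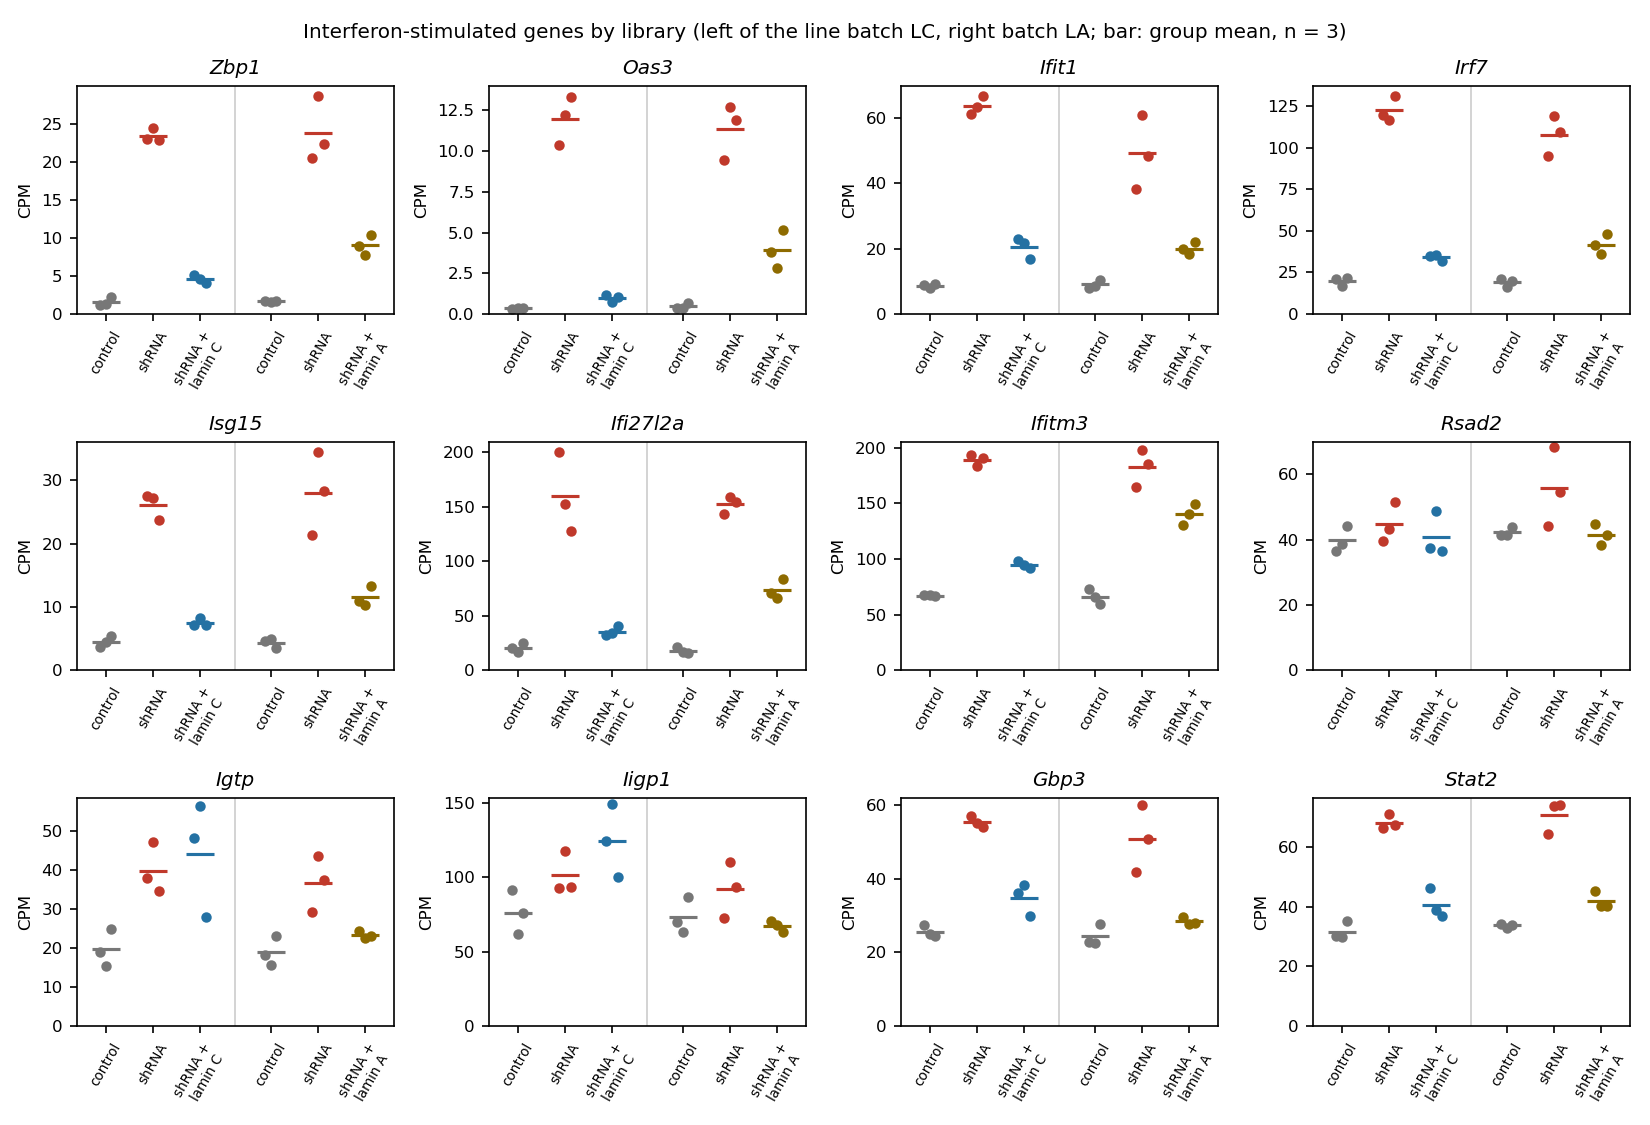
CPM of 12 members in each of the 18 libraries, with group means as bars. Zbp1, Oas3, Ifit1, Irf7, Isg15 and Ifi27l2a show wide gaps between control and shRNA-labelled libraries. In Igtp and Iigp1 2 of 3 lamin C libraries lie above every shRNA-labelled library of batch LC in these TMM-scaled CPM. By edgeR with TMM 0 members were called higher with lamin C than with the shRNA label, and with library totals Iigp1 was at -0.02.

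The rise did not differ detectably between the batches. The log2 change was larger in batch LC for 32 members and in batch LA for 7, but the difference between the batches was called higher for 0 members and lower for 0 by edgeR, against 0.00559% and 0% of all genes. At an unadjusted p under 0.05 there were 3 (Ifit1, Oas2 and Usp18, all larger in batch LC), and DESeq2 called 0. Neither the 3 nor the split of 32 and 7 was set against all genes, and neither is read as a difference between batches. The smallest adjusted p was 0.676, for Oas2, whose difference was 0.37 ± 0.13.

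Genes of the pathway around the members, on lists of ligands, receptors, other factors and sensors, were looked at in the same fit. None of 21 interferon genes had enough counts to be tested. The only ligands with any count were Ifnb1, Ifnab, Ifnz and Ifng. Ifnab had 4, 2 and 6 counts in the shRNA-labelled libraries of batch LC, 5, 4 and 0 in those of batch LA, and 0 in all 6 controls. With lamin C it had 0, 7 and 0 counts, and with lamin A 0 in all 3 libraries. Ifng had 0 counts in the controls and shRNA-labelled libraries of batch LC, and 2, 9 and 2 counts with lamin C. In batch LA Ifng had 0, 0 and 3 counts in the controls, 1, 2 and 1 with the shRNA label, and 3, 1 and 0 with lamin A. At a floor of 3 counts a library these levels lie at or near the limit of detection.

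Of 9 receptor and Janus kinase genes 4 were higher and 4 lower in the shRNA-labelled hearts of batch LC. The receptor chains Ifnar1 (0.42 ± 0.06), Ifnar2 (0.32 ± 0.06) and Ifngr1 (0.72 ± 0.06) and the kinase Tyk2 (0.28 ± 0.07) were higher. The chains Ifngr2 (-0.73 ± 0.07), Il10rb (-0.96 ± 0.05) and Ifnlr1 (-0.69 ± 0.17) and the kinase Jak1 (-0.42 ± 0.05) were lower. Scaled by library totals, Jak1 was at 0.01 and Ifnlr1 at -0.26, neither of them called, and Ifngr2 and Il10rb stayed lower at -0.30 and -0.53. Of 7 other transcription factors 4 were higher, led by Irf5 (1.69 ± 0.10) and Irf8 (1.38 ± 0.12), both of myeloid cells. With library totals 7 of 7 were higher, where 10429 of 17876 genes were called higher. Irf1, an early target of interferon gamma, was at 0.06 ± 0.09 (adjusted p = 0.551) and did not pass, but was called at 0.49 (adjusted p = 5.84e-05) with library totals.

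Of 15 other sensing genes 14 were higher and 1 lower in the shRNA-labelled hearts of batch LC, against 33.3% and 29.6% of all genes. In batch LA 13 were higher and 1 lower, against 32.4% and 29% of all genes. The values and counts that follow are of batch LC. Ifi204, a DNA sensor of macrophages, was at 2.76 ± 0.11, and the endosomal receptors Tlr9, Tlr8 and Tlr7 at 2.76 ± 0.20, 2.43 ± 0.21 and 2.02 ± 0.12. Tmem173, which is STING, was at 1.68 ± 0.15 and Mb21d1, which is cGAS, at 1.42 ± 0.21. Mavs, the mitochondrial adaptor of RIG-I and MDA5, was lower at -1.01 ± 0.07. Downstream of Zbp1, the death genes Mlkl (1.25 ± 0.13), Ripk3 (0.86 ± 0.20), Ripk1 (0.83 ± 0.10) and Casp8 (0.71 ± 0.10) were higher, and Fadd (-0.36 ± 0.06) was lower but at 0.07 and not called with library totals. Of 10 genes of nucleic acid clearance and restraint that were tested, 5 were higher and 2 lower, led by Socs3 (2.42 ± 0.17), a brake on Janus kinases. With library totals 9 were higher and 0 lower, where 10429 of 17876 genes were called higher and 2415 lower.

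With lamin C added, 35 of 39 members were lower than in the shRNA-labelled hearts and 0 were higher, against 28.4% of all genes called lower and 25.7% higher. The median log2 change was -1.02 (-0.04 over all genes), and 20 members fell at least 2-fold, against 10% of all genes. Oas3 fell most, at -3.62 ± 0.22 (adjusted p = 1.34e-10), then Zbp1 at -2.36 ± 0.16 (adjusted p = 3.83e-10) and Ifi27l2a at -2.18 ± 0.16 (adjusted p = 9.72e-10). In these 35 members every lamin C library lay below every shRNA-labelled library, against 31.9% of all genes. The 4 members without a call were Rsad2 (-0.13 ± 0.13), Gbp2 (-0.22 ± 0.12), Igtp (0.15 ± 0.21) and Iigp1 (0.30 ± 0.16), of which 3 are GTPases. Beside this, 14 of 16 macrophage markers were lower, with a sum of 803 to 954 CPM, and so were 3 of 14 T and natural killer cell markers, with a sum of 8.63 to 8.93 CPM. All 10 fibroblast markers were lower, with a sum of 2470 to 3550 CPM, and 9 of 10 cardiomyocyte markers higher (8 with library totals), with a sum of 79600 to 83200 CPM. Their part in the fall was not tested. With library totals the median of all genes moved by -0.31, that of the members was -1.33, and 37 members were lower, with Iigp1 at -0.02. Of 17876 genes 9213 were then called lower, and the share of higher among all genes called was 20.2%, against 47.5% with TMM.

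Against control, the lamin C hearts still had 25 members higher and 0 lower, with 14 not called. Of all genes 8.87% were called higher and 6.18% lower in this comparison. The median of the members was 0.46 (0.00 over all genes), and 5 members were at least 2-fold higher, against 3.1% of all genes. These were Zbp1 (1.54 ± 0.21, adjusted p = 6.17e-05), Oas3 (1.39 ± 0.34, adjusted p = 0.00957), Ifit1 (1.24 ± 0.15, adjusted p = 2.69e-05), Igtp (1.16 ± 0.22, adjusted p = 0.00122) and Oasl1 (1.04 ± 0.19, adjusted p = 0.0011). Oas3 did not pass with limma on log2(FPKM + 1), at 0.11 (adjusted p = 0.407), or on log2(FPKM + 0.1), at 0.63 (adjusted p = 0.0818). In 23 members all 3 lamin C libraries lay above the controls and below the shRNA-labelled libraries, against 10.3% of all genes. The number called was 32 without the third control and 18 without the first lamin C library. With library totals, which moved the median of all genes by 0.11, 31 members and 2879 of 17876 genes were higher. Of all genes called 90.8% were then higher, against 58.9% with TMM. Of the macrophage markers 15 of 16 and of the T and natural killer cell markers 4 of 14 were also higher than in control. So were 8 of 10 fibroblast markers, while 6 of 10 cardiomyocyte markers were lower (3 with library totals), and their part was not tested. The comparisons of lamin C hearts with shRNA-labelled and with control hearts share libraries with each other and with those above.

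With lamin A added, all 39 members were lower than in the shRNA-labelled hearts, against 13.7% of all genes called lower, and 0 were higher, against 16.1%. The median was -0.78 (0.00 over all genes), and 10 members fell at least 2-fold, against 3.09% of all genes. The largest falls were those of Oas3 (-1.53 ± 0.18, adjusted p = 4.26e-06), Zbp1 (-1.40 ± 0.15, adjusted p = 1.02e-06) and Irf7 (-1.37 ± 0.11, adjusted p = 1.44e-07). Without the second shRNA-labelled library 34 members were called, and Rsad2, Gbp2, Igtp, Iigp1 and Ifi35 were not. Every lamin A library lay below every shRNA-labelled one for all members except Rsad2, and for 22% of all genes. Of the macrophage markers 8 of 16 were lower, and their sum was 1500 to 1630 CPM with lamin A against 1700 to 1850 CPM with the shRNA label. Of the T and natural killer cell markers 5 of 14 were lower, from 11.3 to 18 CPM to 7.44 to 8.11 CPM. Of the fibroblast markers 4 of 10 were lower (7 with library totals), with sums of 9610 to 10600 CPM and 7600 to 9870 CPM, and 9 of 10 cardiomyocyte markers were higher (7, and 1 lower, with library totals), from 40800 to 42100 CPM to 59000 to 63200 CPM. Their part in the fall was not tested. With library totals the median of all genes moved by -0.20, that of the members was -0.98, and 17.1% of all genes called were higher, against 54.1% with TMM.

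Against control, 27 members were higher in the lamin A hearts, 0 lower and 12 not called. Of all genes 24.1% were called higher and 22.1% lower. The median of the members was 0.67 (0.02 over all genes) and 12 were at least 2-fold higher, against 9.71% of all genes. They were led by Oas3 (3.06 ± 0.27, adjusted p = 2.23e-08), Zbp1 (2.43 ± 0.19, adjusted p = 5.07e-09) and Ifi27l2a (2.04 ± 0.16, adjusted p = 6.68e-09). All 5 members of the 2-5A synthetase family were higher. Of the 6 GTPases 1 was, Gbp2 (0.41 ± 0.12, adjusted p = 0.00906). Igtp (0.30 ± 0.22) and Iigp1 (-0.12 ± 0.16) did not pass. In 30 members the lamin A libraries lay above every control and below every shRNA-labelled library, against 11.9% of all genes. Of the macrophage markers 14 of 16 were also higher than in control, with a median log2 change of 1.68. All 10 fibroblast markers were higher as well and 9 of 10 cardiomyocyte markers lower (with library totals 1 was higher), and their part was not tested. With library totals the median of all genes moved by 0.24 and that of the members was 0.90. Then 36 members and 7676 of 17876 genes were called higher, and 81.3% of all genes called were higher, against 52.2% with TMM. With the compared groups alone 31 members were called higher.

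**Figure D4:**
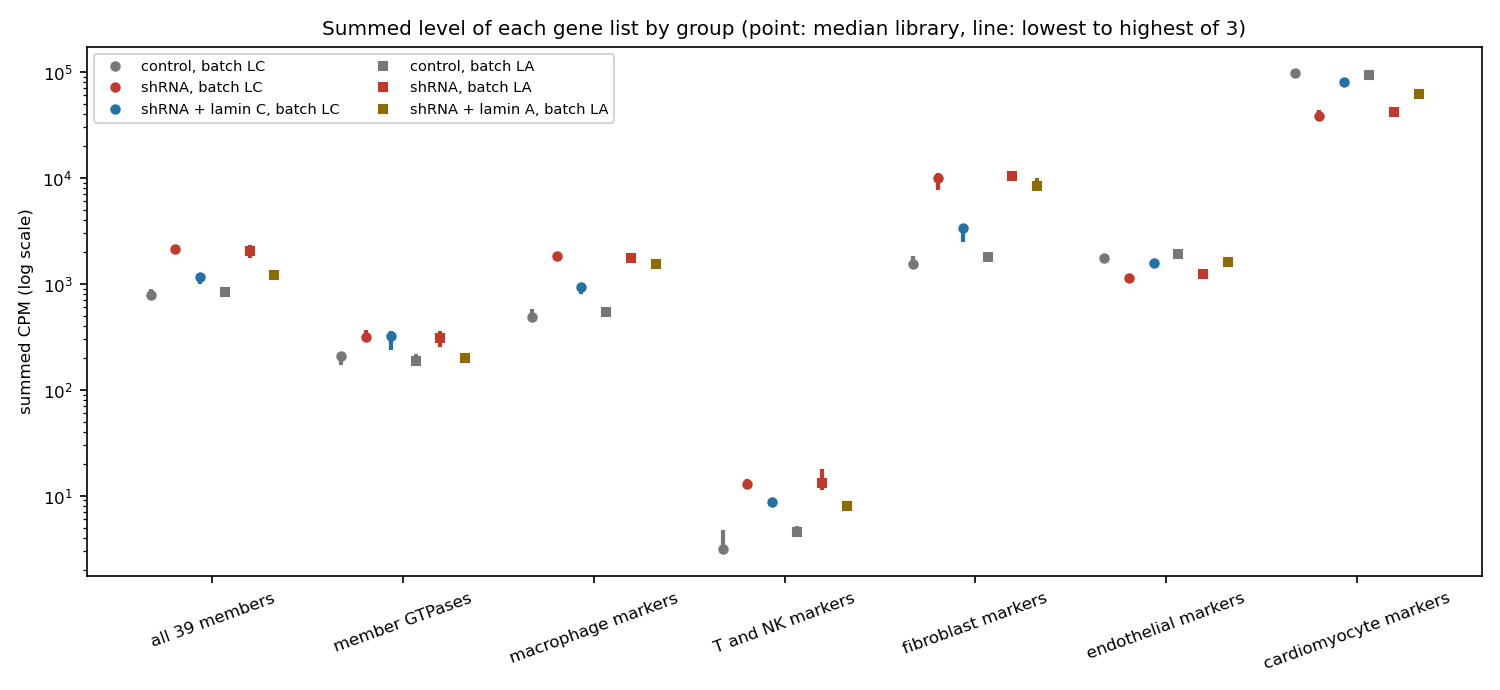
Summed CPM, on a log axis, of all 39 members, the 6 GTPases among them and 5 marker lists, by group. Points are the median of 3 libraries and lines run from the lowest to the highest. The members' sum was 1160 to 1250 CPM with lamin A and 995 to 1180 CPM with lamin C, while the macrophage markers summed to 1500 to 1630 CPM with lamin A and 803 to 954 CPM with lamin C.

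Side by side, 21 members were higher than control with both lamins and 8 with neither, against 7.71% and 74.7% of all genes. Called with lamin C alone were 4 (Gbp3, Irgm1, Igtp and Iigp1, all GTPases), against 1.15% of all genes. Called with lamin A alone were 6 (Ddx58, Eif2ak2, Oasl2, Samd9l, Ifi44 and Rtp4), against 16.4%. With library totals Gbp3, Irgm1 and Igtp were also called with lamin A, at 0.46, 0.42 and 0.54, and Ddx58, Oasl2, Samd9l and Rtp4 with lamin C, at 0.34, 0.45, 0.28 and 0.42. A call in 1 batch alone does not show a difference, which was tested as the change over control with lamin C minus that with lamin A. Lamin C was given in batch LC only and lamin A in batch LA only, so lamin, batch and the level of added Lmna cannot be told apart in these tests.

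For the excess over control, 5 members were lower with lamin C than with lamin A and 1 was higher, against 7.35% and 7.29% of all genes. The 5 were Oas3 (-1.67 ± 0.48, adjusted p = 0.0241), Ifi27l2a (-1.25 ± 0.23, adjusted p = 0.00115), Zbp1 (-0.89 ± 0.29, adjusted p = 0.0466), Oasl2 (-0.69 ± 0.16, adjusted p = 0.00764) and Ifitm3 (-0.59 ± 0.10, adjusted p = 0.00104). Macrophage and fibroblast markers moved the same way as the 5, with 10 of 16 and 9 of 10 lower in this difference. Of 10 cardiomyocyte markers 5 were higher (3 with library totals), and the part of the markers was not tested. Ifitm3 had CPM in batch LC of 67.3, 67.5 and 66.3 in the controls, 194, 184 and 190 with the shRNA label, and 97.8, 94.7 and 92.2 with lamin C. In batch LA it had 72.95, 65.9 and 59.04 in the controls, 165, 198 and 186 with the shRNA label, and 131, 141 and 150 with lamin A. Its lamin A libraries were nearer to the shRNA-labelled ones than its lamin C libraries were. Ifi27l2a, Oasl2 and Ifitm3 stayed called under all 22 alternatives tried. Zbp1 lost the call in 11 of 22, with an adjusted p up to 0.281. Among single libraries, it was lost without control 3 of batch LC (-0.52), without lamin C library 2 or 3, without any 1 of the controls of batch LA, and without lamin A library 1 or 3. Oas3 lost it in 6 of 22, with an adjusted p up to 0.0654: without control 2 or 3 or lamin C library 2 of batch LC, without control 1 or 2 of batch LA, and without the third controls of both batches.

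The member that was higher was Iigp1, an immunity-related GTPase strongly induced by interferon gamma. Iigp1 had CPM in batch LC of 91.3, 61.6 and 75.8 in the controls, 92.8, 118 and 93.5 with the shRNA label, and 124, 149 and 100 with lamin C. In batch LA it had 70.3, 63.2 and 86.8 in the controls, 72.98, 111 and 93.4 with the shRNA label, and 70.97, 68.3 and 63.05 with lamin A. With lamin C every library lay above every control, and with lamin A none lay above the highest control. The difference was 0.83 ± 0.23 (adjusted p = 0.0206). It was lost without control 2 or lamin C library 2 of batch LC, without control 3 or lamin A library 3 of batch LA, and without the third controls of both batches (adjusted p up to 0.0953). Igtp (ENSMUSG00000078853, mm10 chr11:58199556-58207591), another immunity-related GTPase, had CPM in batch LC of 18.9, 15.4 and 25.02 in the controls, 37.9, 47.4 and 34.6 with the shRNA label, and 48.2, 56.5 and 27.9 with lamin C. Batch LA gave 18.2, 15.7 and 23.1 in the controls, 29.4, 43.6 and 37.4 with the shRNA label, and 24.3, 22.7 and 23.2 with lamin A. The third lamin C library was well below the other 2. The difference for Igtp was 0.86 ± 0.31 (adjusted p = 0.0687) and did not pass. It was called without that library, at 1.11 (adjusted p = 0.00768), and without control 3 of batch LC, at 1.07 (adjusted p = 0.0299). Leaving out any other 1 library did not give a call, and the lowest value was 0.64 (adjusted p = 0.199), without lamin C library 2. It was called at 0.86 (adjusted p = 1.31e-11) with no filter on low counts. That setting left the estimate as it was and gave far smaller adjusted p elsewhere too. For Igtp with lamin C over control the edgeR adjusted p went from 0.00122 to 4.3e-44, so this call adds little. All 6 GTPases had a difference above 0, with a median of 0.28, except that Gbp2 was at -0.05 with library totals. Of these only Iigp1 passed. They were measured in the same libraries, and each was lowest of its group in the third lamin C library. Their sum ran from 239 to 357 CPM with lamin C. All 5 of the 2-5A synthetase family had a difference below 0, with a median of -0.59. Neither count of signs was set against all genes. Over all 39 members the median was -0.13, and over all genes tested -0.01. B cell markers summed to 2.56 to 7.78 CPM with lamin C against 2.35 to 3.15 CPM in its controls, and 3.15 to 3.85 CPM with lamin A against 3.35 to 5.86 CPM. Of 7 B cell markers tested, 0 were called against control with either lamin and 0 in the difference between them. Of the 75-base words of Igtp 7.8% also occur in other genes, led by Irgm2.

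**Figure D5:**
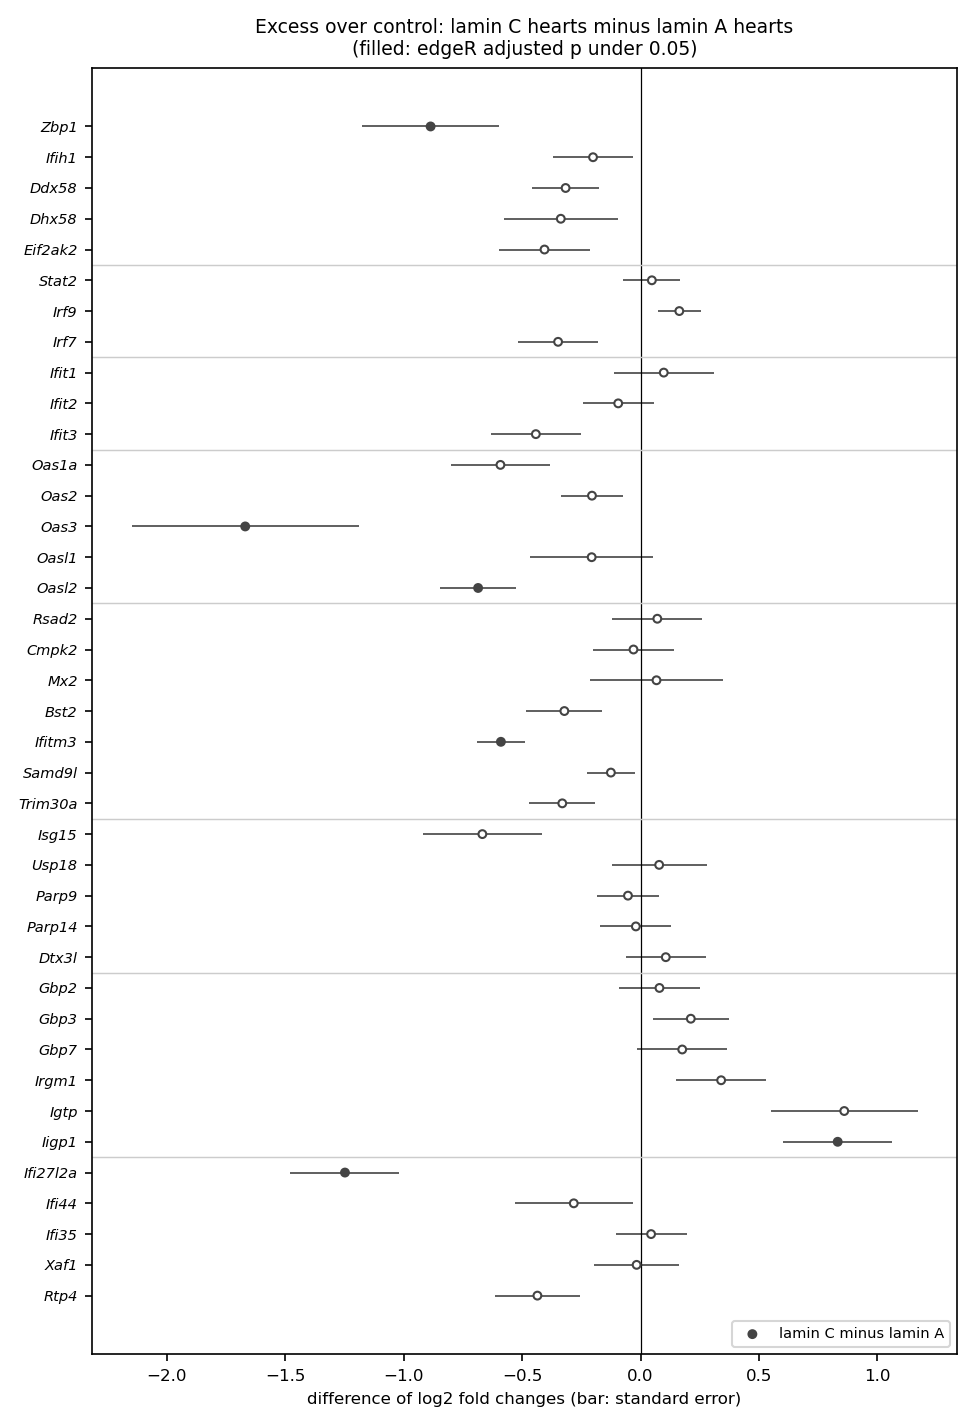
Difference between the lamin C and lamin A hearts in each member's log2 change over its own control, with standard errors. Points left of 0 are members with the greater excess under lamin A, such as Oas3 at -1.67, and the GTPases lie from 0.08 (Gbp2, at -0.05 with library totals) to 0.86 (Igtp).

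The same contrast taken against the shRNA-labelled hearts gave more calls. The change with lamin C minus the change with lamin A was lower for 12 members and higher for 1, against 9.9% and 8.84% of all genes. All 5 of the 2-5A synthetase family were among the 12, led by Oas3 (-2.09 ± 0.29, adjusted p = 8.24e-05), with Oasl2 at -0.74 ± 0.15, Oas1a at -0.77 ± 0.18, Oasl1 at -0.67 ± 0.22 and Oas2 at -0.57 ± 0.12. Ifi27l2a (-1.13 ± 0.21, adjusted p = 0.00108), Zbp1 (-0.96 ± 0.21, adjusted p = 0.00367) and Ifitm3 (-0.62 ± 0.10, adjusted p = 0.000426) were also lower. The other 4 were Rtp4 (-0.67 ± 0.17), Irf7 (-0.48 ± 0.16), Trim30a (-0.46 ± 0.14) and Samd9l (-0.32 ± 0.09). Of 21 alternatives, Irf7 lost the call in 12, Oasl1 in 10, Samd9l in 5 and Trim30a in 4, and the other 8 lost it in 0. Iigp1 was higher (0.75 ± 0.23, adjusted p = 0.0274) and lost the call in 9, with an adjusted p up to 0.0913. The count of lower members was 19 without the second shRNA-labelled library of batch LA, and 8 without the first of that group or without the third lamin C library. Of the macrophage markers 11 of 16 and of the fibroblast markers 9 of 10 were also lower, 7 of 10 cardiomyocyte markers were higher, and their part was not tested. The shRNA-labelled hearts enter both this contrast and the comparisons above. With library totals 17 members were lower here and 8 in the excess over control, where the median of all genes moved by -0.11 and -0.12. Of 17876 genes 2749 and 2372 were called lower with that scaling. Of all genes called, 25.2% and 22.3% were then higher, against 47.2% and 49.8% with TMM.

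Irf1, no member of the set, had CPM in batch LC of 32.1, 30.9 and 27.2 in the controls, 32.7, 32.6 and 28.99 with the shRNA label, and 40.7, 42.7 and 34.1 with lamin C. In batch LA it had 31.5, 32 and 29.7 in the controls, 27.9, 34.8 and 31.1 with the shRNA label, and 30.1, 29 and 28.9 with lamin A. In these TMM-scaled CPM every lamin C library lay above every control and shRNA-labelled library of its batch. The change over control was 0.38 ± 0.09 (edgeR adjusted p = 0.00657) with lamin C and -0.08 ± 0.09 with lamin A. Irf1 is 1 of the 7 other transcription factors. Against the shRNA label, lamin C had 2 of these 7 called higher with TMM and 0 with library totals. In the excess over control, lamin C minus lamin A was called higher for 1 with TMM and 0 with library totals. Irf1 was added after its values were seen.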

How the data were processed

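RNA of the heart apex was made into poly-A, strand-marking libraries, per the labels' protocols. The authors deposited whole-number counts per gene and FPKM values, a count per gene length and library size. The submitters' processing notes name mm10, DESeq2 1.20.0, StringTie 1.3.3b, HISAT2 2.0.5 and featureCounts 1.5.0-p3. The strand setting of the counting step was not stated there. Here the deposited counts of 18 libraries were fitted with edgeR 4.0.16 in R 4.3.3 (TMM, filterByExpr, quasi-likelihood test, 6 groups in 1 model, 12 residual degrees of freedom), and p-values were adjusted over 17876 genes at a threshold of 0.05. A standard error is the log2 change over the square root of its F value. CPM are counts over the TMM-scaled library size. The model was tested on simulated data of 17321 genes, where it recovered 92.5% of 2-fold changes between shRNA-labelled and control hearts of batch LC, and 80.6% of 2-fold differences between the batches. At 1.5-fold it recovered 80.6% and 55.2%. Few genes were changed there, up or down at random and in the shRNA-labelled group of batch LC alone. The changed genes all had a mean of at least 1 CPM, so recovery among scarcer genes was not tested. The spread was drawn from the trend over genes, not from each gene's own spread. The simulation therefore does not test the scaling where as many genes differ as here.

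The members and the gene lists were chosen with earlier results of these data known. In each role the text gives every library of the 2 members with the largest log2 change between shRNA-labelled and control hearts of batch LC, and of all 3 transcription factors. Members not called there, members called in lamin hearts, and the 5 with the smallest adjusted p in each difference are also named, with up to 4 genes of each pathway list by smallest adjusted p. Other members and pathway genes, Irf1 among them, and library values of Ifitm3 and Igtp were added after their values were seen, and 1 pathway gene is not reported here. Alternatives were DESeq2 1.42.0, other scalings, no filter, limma 3.58.1 on log2(FPKM + 1) and log2(FPKM + 0.1) with FPKM of at least 1 in 3 libraries, no mitochondrially encoded genes, the compared groups alone, a replicate block and libraries left out. Libraries of a group differed beyond counting noise (chi-square per degree of freedom of 5.98 to 39.3). Replicate numbers do not pair the libraries across groups.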

Additional observations from a re-analysis of the deposited data

Results flagged for a closer look

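The difference between the lamins was itself tested, and over 39 members and 2 contrasts 19 differences passed an edgeR adjusted p of 0.05. Of all genes, 9.9% were called lower and 8.84% higher in the change from shRNA-labelled hearts. In the excess over control the shares were 7.35% and 7.29%. The contrasts share the lamin libraries, and every member called in the excess over control was also called in the other. Calls of Zbp1, Oas3 and Iigp1 in the excess were lost under some alternatives. So were those of Irf7, Oasl1, Samd9l, Trim30a and Iigp1 in the other contrast. All 19 compare lamin C in batch LC with lamin A in batch LA, so lamin, batch and Lmna level cannot be told apart.

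In the change from shRNA-labelled hearts, lamin C minus lamin A was -2.09 for Oas3, -1.13 for Ifi27l2a, -0.96 for Zbp1, -0.77 for Oas1a and -0.74 for Oasl2. It was -0.67 for both Oasl1 and Rtp4, -0.62 for Ifitm3, -0.57 for Oas2, -0.48 for Irf7, -0.46 for Trim30a and -0.32 for Samd9l. For Iigp1 it was 0.75.

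In the excess over control, lamin C minus lamin A was -1.67 for Oas3, -1.25 for Ifi27l2a, -0.89 for Zbp1, -0.69 for Oasl2 and -0.59 for Ifitm3. For Iigp1 it was 0.83. Of these, Zbp1 is a nucleic acid sensor, Oas3 and Oasl2 belong to the 2-5A synthetase family, Ifi27l2a and Ifitm3 encode membrane proteins, and Iigp1 is a GTPase.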

How the results depend on the processing

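Of 6201 values of single members under the alternatives, 5973 kept their direction and side of the threshold, 117 lost a call, 111 gained one, and no called value took the opposite direction. Of 18 counts of called members, 12 stayed within 1.5 times under every alternative. These include counts of 0 that stayed at 0, such as members called lower with the shRNA label. Every count of the differences between the lamins moved by more than 1.5 times under some alternative. With no filter on low counts, 1 member was higher with lamin C than with the shRNA label, and the rise differed between batches for 1. With no filter the effect of lamin C minus that of lamin A was higher for 2 and lower for 20, and the excess over control was higher for 3 and lower for 13. The cause was not tested. With library totals the effect difference was higher for 0, as it was with both FPKM fits. The excess difference was lower for 8 with library totals, against 2372 of 17876 genes. Without the third control of each batch the excess difference was higher for 0 and lower for 3. Leaving out 1 library gave 37 to 38 members higher with the shRNA label in batch LC and 37 to 39 in batch LA. It gave 35 lower and 0 to 1 higher with lamin C against the shRNA label (1, Iigp1, without the third lamin C library), 18 to 32 higher with lamin C against control, 34 to 39 lower and 26 to 28 higher for the same lamin A comparisons. The effect difference ranged from 0 to 2 higher and 8 to 19 lower, and the excess difference from 0 to 2 higher and 3 to 6 lower. Replicate numbers do not pair the libraries: the correlation of deviations ran from -0.046 to 0.062 over 18 same-number pairs. With the replicate block, 38 members in each batch were higher with the shRNA label, 35 and 38 lower with lamin C and lamin A, 25 and 27 higher than control, and the differences between lamins were lower for 10 and 4 and higher for 1 and 1. Interferon genes lay near the 3-count floor, and changes there were not detectable at this depth.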
